A study of Drosophila melanogaster with 3 samples.

Results

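Broad ORC2 sites were the 391 of 4162 peaks on the large chromosome arms (2L, 2R, 3L, 3R and X) that were at least 500 bp wide in the authors' list for the whole series (9.39%, exact binomial 95% interval 8.52 to 10.3%). The whole-series list had 4230 peaks on all sequences. Width itself chose these sites. It and the other features of the same peak calls (score, makeup, spacing) are therefore described here without a test, and no test was run. Intervals cover the counting of peaks only. Neighbouring peaks are not independent, so the intervals are likely too narrow.

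The data are chromatin immunoprecipitation and sequencing (ChIP-seq) of ORC2 in S2-DRSC, a male Drosophila melanogaster cell line derived from late embryos. Cultures were asynchronous and untreated as far as the labels say, and the antibody was a crude rabbit polyclonal antibody raised against the purified full-length protein. There were 2 ORC2 samples, replicate 1 and replicate 2, each with its own chromatin extraction, and 1 input DNA sample, which was not analysed here. Whether the cultures were separate is not said in the labels, and the replicate spread may thus be technical. A single cell line was used throughout. On the large arms replicate 1 had 6550 peaks and replicate 2 had 7115. The lists give positions and scores but no read counts, so depth is unknown.

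ORC2 belongs to the origin recognition complex, which binds DNA and loads the replicative helicase at the places where replication can start. In Drosophila the complex has no strict consensus sequence and is found mainly in open chromatin, often at promoters of active genes. In animal cells replication often starts at 1 of many possible positions spread over a zone rather than at a fixed point. Positions are those of FlyBase release 5, as in the files. Genes and DNA sequences at the sites were not analysed here.

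The broad sites ranged from 500 to 4846 bp, with a median of 649 bp and quartiles at 562 and 783 bp. Most were close to the minimum: 117 (29.9%) reached 750 bp, 55 (14.1%) reached 1000 bp, 8 reached 1500 bp and 5 reached 2000 bp. The 3771 narrower sites had a median of 177 bp. Together the broad sites held 293533 of the 1066470 bases in whole-series peaks on these arms (27.5%).

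The widest site lay at 3L, 651807 to 656652, and was 4846 bp long. Replicate 2 gave a single peak over its whole length with a score of 1.14, and replicate 1 gave a single peak of 1976 bp with a score of 1.24. The next widest, 2829 bp at 3L, 634449 to 637277, was again 1 peak in each sample, of 1835 bp in replicate 1 (score 1.19) and 2829 bp in replicate 2 (score 1.20). At these 2 sites replicate 2 was wider by 2870 bp and 994 bp while the scores were close. The widest site on 2L, at 3057908 to 3060557, was 2650 bp and was built differently. Each replicate had 3 peaks there, of 486, 926 and 679 bp in replicate 1 and of 531, 904 and 206 bp in replicate 2. The peaks were staggered, and 1082 bp (40.8%) were covered in both samples. In contrast, the site at 2L, 19574963 to 19577032, was 2070 bp wide in replicate 1 and 2014 bp in replicate 2, with scores of 5.64 and 5.74. It was the highest scoring of the 12 widest sites.

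Of the 12 widest sites, 6 were on 3L, and 5 of those 6 lay between 606102 and 656652. The fourth, 2480 bp at 3L, 639237 to 641716, was a peak of 2480 bp in replicate 2 (score 2.37) and peaks of 1714 and 251 bp in replicate 1 (scores 2.45 and 1.62). The sixth on the list, at 3L, 16044924 to 16046625, was 1462 bp in replicate 1 and 1702 bp in replicate 2, with scores of 5.02 and 4.53. The widest on X, 1623 bp at 1375886 to 1377508, was 1 peak of 1572 bp in replicate 1 and peaks of 72 and 742 bp in replicate 2. The next on X, 1601 bp at 5795430 to 5797030, was the reverse, with peaks of 925 and 289 bp in replicate 1 and a peak of 1582 bp in replicate 2 (score 5.81). The widest on 2R, 1497 bp at 6977278 to 6978774, was 1 peak in each sample, of 1399 and 1497 bp, with scores of 1.84 and 1.85. On 3R the widest was 1441 bp, at 25607806 to 25609246. There replicate 1 gave 1 peak of 1429 bp and replicate 2 gave peaks of 89, 587 and 146 bp. The other 2 of the 12, at 3L, 606102 to 607521 and 646610 to 648022, were single peaks of 1128 and 1420 bp and of 1259 and 1413 bp in replicates 1 and 2. The peaks of replicate 2 were wider at 8 of these 12 sites when the widest peak in each sample was compared.

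The width minimum fell in a continuous range of widths. The narrowest members, at 3L, 8655233 and 3R, 2826371 (both 500 bp) and at 2L, 22121717 (501 bp), had scores of 3.31, 6.66 and 4.22. The 3 widest peaks outside the rule, at 2R, 12037964, 3L, 16038017 and 3R, 19818943, were each 1 bp short of the minimum and had scores of 4.45, 2.01 and 2.43.

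The next question was whether each replicate gave a single broad peak or several peaks that the whole-series list had joined. All 4162 whole-series peaks on these arms spanned the outer edges of the touching peaks of both replicates, so a broad site can come from a broad peak in 1 sample, from offset peaks, or from a chain. Single peaks were the usual case. At 300 of the 391 broad sites (76.7%) each replicate had exactly 1 peak, and at 91 (23.3%, interval 19.2 to 27.8%) at least 1 replicate had several. Among the narrower sites 24 of 3771 (0.636%) held several peaks of a replicate. Joining peaks lengthens a site, so this difference follows in part from how the list was built.

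Replicate 1 gave 1 peak of 500 bp or more at 235 broad sites, 1 shorter peak at 104 and several peaks at 52. Replicate 2 gave 1 peak of 500 bp or more at 279, 1 shorter peak at 70 and several at 42. Of the 91 joined sites, 49 had several peaks of replicate 1 against 1 of replicate 2, 39 had the opposite arrangement, and 3 had several of both. Of those 3, the site at 3R, 26885968 to 26886722 (755 bp), had peaks of 70 and 454 bp in replicate 1 (scores 3.12 and 5.76) and of 320 and 183 bp in replicate 2 (scores 3.16 and 6.27). A gap between joined peaks of 1 replicate is bridged by a peak of the other, so its length is limited by how the list was built. The bases between neighbouring peaks of the same replicate numbered 201 to 606 in replicate 1 (median 236, 53 gaps) and 201 to 775 in replicate 2 (median 237, 44 gaps). In neither replicate's list did any 2 peaks lie closer than 200 bp. Whether nearer peaks were joined during calling is not stated in the sources used here. A single peak therefore means a single call in that list. The smallest peak at a joined site had a median width of 116 bp over 52 sites in replicate 1 and 133.5 bp over 42 sites in replicate 2, and it scored higher than the widest peak of the same site at 18 and 17 of them.

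A peak of 500 bp or more was present in both replicates at 180 broad sites (46.0%, interval 41.0 to 51.1%). It was present in replicate 1 alone at 68, in replicate 2 alone at 108, and in neither at 35. In those 35 cases shorter peaks together spanned a broad site, with a median width of 541 bp. At the median of them 43.1% of the bases were covered in both samples. Some were offset or chained and others nearly coincided. At 2L, 8553629 to 8554130, named for its value, peaks of 485 and 493 bp had 94.8% of the site in common. Among the sites with 1 peak from each replicate, 160 were broad in both, 118 in 1 of the 2 samples and 22 in neither.

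**Figure D1:**
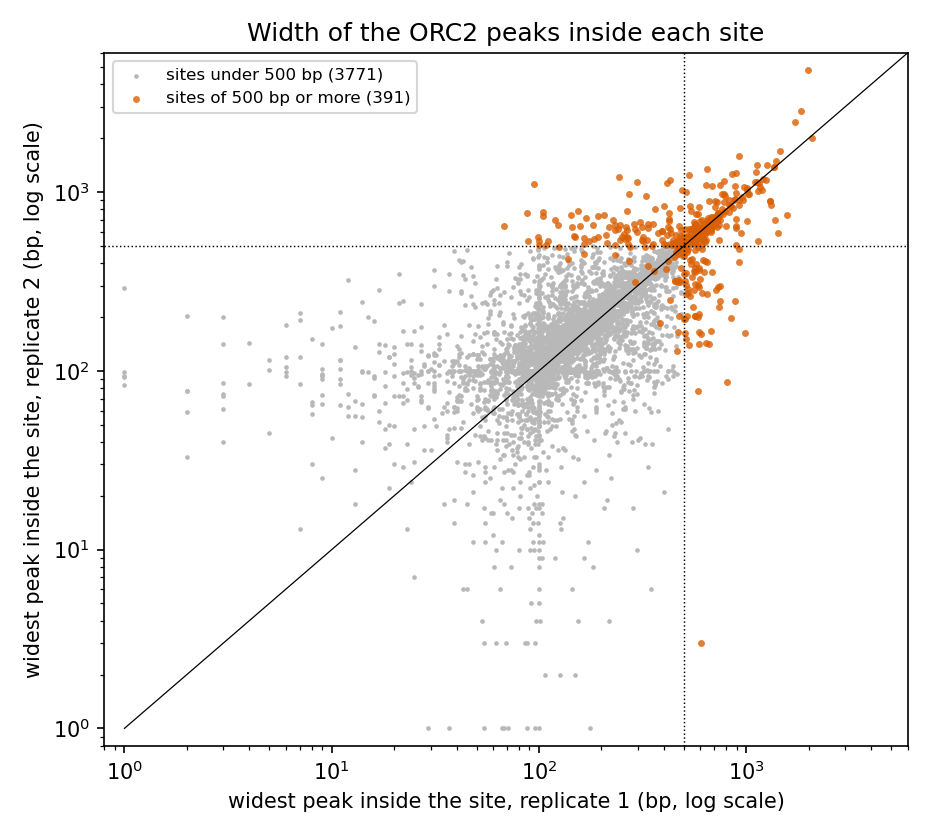
Width of the widest peak inside each site in replicate 1 (horizontal axis, bp, log scale) and replicate 2 (vertical axis, bp, log scale), with 1 point per site, broad sites in orange, narrower sites in grey, dotted lines at 500 bp and a solid line of equal width. In the upper right corner lie the 180 broad sites with a peak of at least 500 bp in both samples, and the arms along the dotted lines are the 176 with such a peak in 1 sample.

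Wider sites were more often broad in both samples. A peak of 500 bp or more in each replicate was found at 92 of 274 sites under 750 bp (33.6%), at 39 of 62 sites of 750 to under 1000 bp (62.9%) and at 49 of 55 sites of 1000 bp or more (89.1%). The share joined from several peaks rose over the same classes, from 19.3% to 29.0% and 36.4%. A site spans the peaks of both replicates, so both rises follow in part from how the list was built. At the median broad site 72.4% of the bases were covered by peaks of both replicates (interquartile range 48.8 to 90.4%), against 65.6% at the median narrower site (42.2 to 81.5%). Both samples covered at least 500 bp in common at 178 broad sites (45.5%). Coverage in common was below 25% at 28 broad sites (7.16%). The lowest was at 2L, 3061895 to 3062500, a site named for its value, where a replicate 1 peak of 606 bp met a replicate 2 peak of 3 bp.

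**Figure D2:**
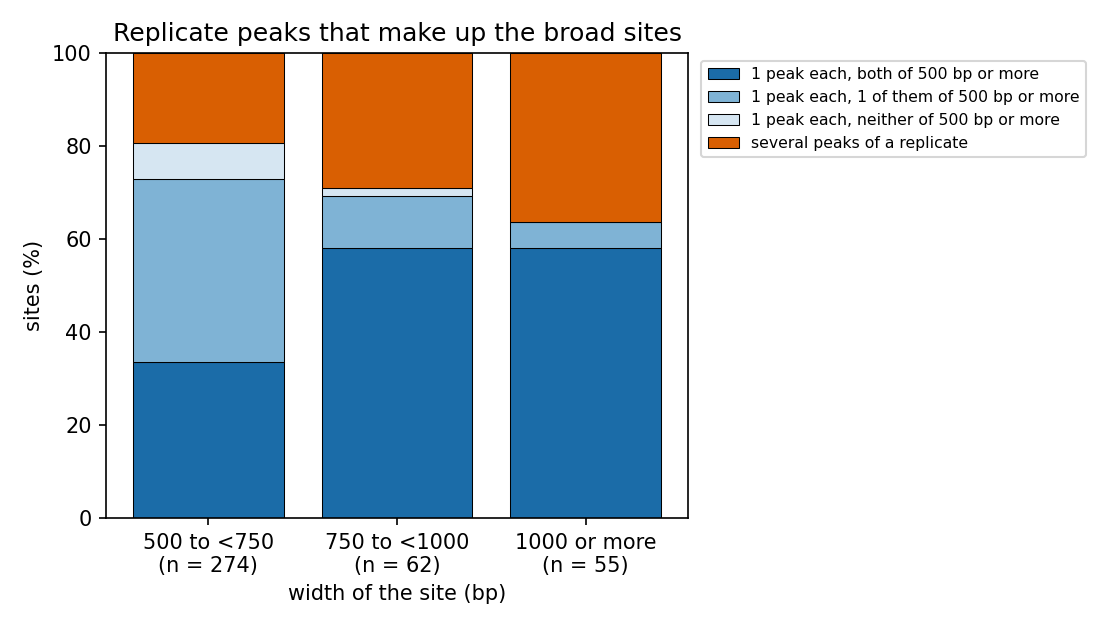
Share of broad sites (vertical axis, %) by the replicate peaks they contain, in 3 classes of site width (horizontal axis, bp), with the number of sites under each bar. Sites with 1 peak of at least 500 bp from each replicate make up 33.6%, 58.1% and 58.2% from left to right, and sites joined from several peaks of a replicate 19.3%, 29.0% and 36.4%.

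Where each replicate had 1 peak, the broad sites had less exact borders in bases than the narrower ones. The left edges of the 2 peaks lay a median of 36 bp apart and the right edges 34 bp, against 23 and 22 bp at the narrower sites. Both edges were within 50 bp at 103 of 300 broad sites (34.3%) and at 2314 of 3747 narrower sites (61.8%). A site under 100 bp leaves little room for its edges to differ, so these values depend in part on width. The median width was 624 bp at these broad sites and 176 bp at these narrower sites, so edge differences rose less than width. A site spans both peaks, so edges that differ also lengthen it.

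Because the rule used both samples, width was also read in a replicate that had not chosen the peaks. Of the 254 replicate 1 peaks of at least 500 bp, 249 (98.0%) touched a replicate 2 peak, and 181 (71.3%, interval 65.3 to 76.7%) touched one of at least 500 bp. Such peaks were 298 of all 7115 in replicate 2 (4.19%). In the other direction, 289 of the 298 broad replicate 2 peaks (97.0%) touched a replicate 1 peak, and 181 (60.7%, 54.9 to 66.3%) touched a broad one, against 254 of all 6550 replicate 1 peaks (3.88%). The share of peaks matched by a broad peak climbed with width. It was 5.14% for replicate 1 peaks of 300 to under 400 bp, 21.3% for 400 to under 500 bp, 64.3% for 500 to under 750 bp and 80.5% for 750 to under 1000 bp, and all 31 replicate 1 peaks of 1000 bp or more met a broad replicate 2 peak. Starting from replicate 2 the same shares were 4.79%, 7.88%, 52.4%, 79.2% and, for 33 of 40 peaks, 82.5%. A wide peak also has more bases with which to touch another, and this was not corrected for.

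Scores were compared next. The score is a number per peak given by the authors, and what it is relative to is not stated in the sources used here. In the whole-series list the broad sites had a median score of 3.77 (interquartile range 3.09 to 4.74) and the narrower sites 3.67 (2.95 to 4.73). This difference was smaller than that between the replicates, whose medians for the widest peak in each broad site were 3.60 and 3.89. For narrower sites these medians were 3.54 and 3.79, so broad sites were slightly higher within each replicate. The order of the medians depended on the arm. On X the broad sites were lower, at 3.67 against 4.05. The X medians for the widest peak in each site were 3.89 for broad and 3.91 for narrower sites in replicate 1. In replicate 2 they were 3.83 and 4.09, so the gap was small in replicate 1. On 2L the broad sites were at 3.74 against 3.72 and on 2R at 4.17 against 3.76. On 3L they were at 3.70 against 3.55 and on 3R at 3.61 against 3.49.

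The ends of the score range separated the classes more than the medians did. A score of 10 or more was found at 2 of 391 broad sites (0.512%) and 74 of 3771 narrower sites (1.96%), and a score under 2 at 21 broad sites (5.37%) and 53 narrower sites (1.41%). The difference at high scores was not particular to the 500 bp minimum, since 0.641% of the sites of 300 to under 400 bp and 0.769% of those of 400 to under 500 bp scored 10 or more, and 50 of the 74 were 100 to under 200 bp wide. Scores under 2 varied with width inside both classes. They made up 2.82% of sites of 200 to under 300 bp. At 300 to under 400 bp the share was 1.71% and at 400 to under 500 bp 1.15%. Among broad sites the share was 3.28% under 750 bp, 6.45% at 750 to under 1000 bp and 14.5% at 1000 bp or more. The last value was 8 of 55 sites. All of these 8 except the site at 3L, 611567 lay in the 2R and 3L stretches described below. The high share at 1000 bp or more thus came mostly from those stretches. Each replicate's own list, with the width minimum applied to its own peaks, had the same order between broad and narrower peaks. Scores under 2 made up 9.84% of broad and 3.08% of narrower peaks in replicate 1, and 8.05% and 3.67% in replicate 2. Scores of 10 or more made up 0.394% of broad and 1.62% of narrower peaks in replicate 1, and 0.671% and 3.36% in replicate 2. With the 3 stretches described below left out, a choice made after the data had been seen, 11 of 368 broad sites scored under 2. Broad sites were then 17.7% of the 62 sites scoring under 2 and 8.91% of all sites. With the stretches kept, they were 28.4% of 74 and 9.39% of all sites.

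**Figure D3:**
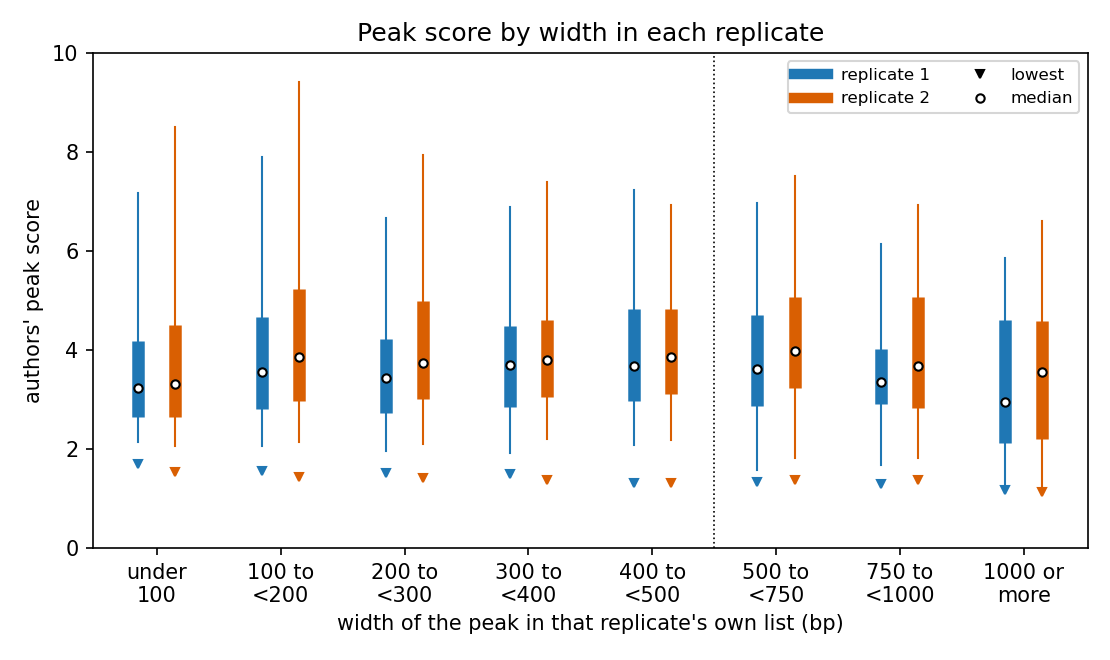
Authors' peak score (vertical axis, no unit given) by width of the peak in each replicate's own list (horizontal axis, bp), with replicate 1 in blue and replicate 2 in orange. Thin lines span the 5th to 95th percentile, thick bars the interquartile range, open circles mark medians and triangles the lowest score, and the dotted line marks 500 bp. Peaks of 1000 bp or more reach the lowest scores, 1.19 and 1.14.

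The lowest score was highest among peaks under 100 bp, at 1.70 in replicate 1 and 1.54 in replicate 2, and lowest among those of 1000 bp or more, at 1.19 and 1.14. It did not fall at every step between. In replicate 1 it was 1.32 at 400 to under 500 bp, 1.35 at 500 to under 750 bp and 1.29 at 750 to under 1000 bp, and in replicate 2 it was 1.33, 1.38 and 1.39. Median scores of peaks of 1000 bp or more were 2.94 over 31 peaks and 3.57 over 40 peaks, against 3.62 and 3.99 for those of 500 to under 750 bp. Across the 391 broad sites, width and score had a Spearman rho of -0.15, a weak relation given as a description, since both come from the same calls.

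All 5 whole-series peaks with the lowest score on the large arms were broad sites. They were the 2 widest, at 3L, 651807 and 634449, another at 3L, 611567 to 612719 (1153 bp, scores 1.29 in replicate 1 and 1.18 in replicate 2), 1 at 2R, 6971522 to 6972837 (1316 bp, 1.24 and 1.39) and 1 at X, 12570565 to 12571326 (762 bp, 1.401 and 1.447). Each was a single peak in each sample. The replicates' scores at these 5 sites lay between 1.14 and 1.45, and the groups of values overlapped.

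The 5 broad sites with the highest scores were 508 to 732 bp wide, and 4 were on X. The top site, X, 4318985 to 4319492, was 508 bp wide and ranked 17 among all 4162 sites, with scores of 15.8 in replicate 1 and 13.9 in replicate 2. The next, X, 16041627 to 16042176, was 550 bp wide and scored 13.3 and 14.2. At X, 15780759 to 15781490, the samples differed. Replicate 2 gave 1 peak of 732 bp with a score of 7.95, whereas replicate 1 gave a peak of 77 bp scoring 5.59 and, near the other end, a peak of 105 bp scoring 17.6. The fourth, X, 18757846 to 18758510, was 313 bp wide in replicate 1 (score 11.1) and 642 bp in replicate 2 (score 7.87). The fifth, 2R, 8878230 to 8878842, was 591 and 574 bp wide and scored 7.36 and 9.62.

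Broad sites had closer neighbours than narrower ones. Another whole-series peak lay within 5 kb, edge to edge, of 302 of 391 broad sites (77.2%, interval 72.8 to 81.3%) and of 2167 of 3771 narrower sites (57.5%, 55.9 to 59.0%). The median distance to the nearest peak was 1135 bp for broad and 3269 bp for narrower sites. Each arm had the same order, with shares for broad and narrower sites of 77.5% and 55.1% on 2L, 75.8% and 55.8% on 2R, 80% and 57.1% on 3L, 73.0% and 59.0% on 3R, and 80% and 59.7% on X. In the single lists, where no replicate merging takes place, 85.0% of broad and 66.6% of narrower peaks of replicate 1 had a neighbour within 5 kb, and 88.3% and 71.7% in replicate 2. At least 3 other sites lay within 5 kb of 109 broad sites (27.9%) and 504 narrower sites (13.4%).

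The share with a neighbour increased over classes of width, from 53.7% under 200 bp to 62.7% at 200 to under 500 bp, 74.8% at 500 to under 750 bp, 80.6% at 750 to under 1000 bp and 85.5% at 1000 bp or more. The intervals of the 3 broad classes overlapped. Neighbours of broad sites were often broad too. A second broad site lay within 5 kb of 129 broad sites (32.99%, interval 28.3 to 37.9%), and a broad site lay within 5 kb of 414 narrower sites (10.98%, 9.998 to 12.02%). These shares also depend on the number of neighbours, which was larger around broad sites. The mean was 0.547 broad sites among 1.88 other sites around broad sites, and 0.138 among 1.08 around narrower sites. Among the 55 sites of 1000 bp or more, 34 (61.8%, 47.7 to 74.6%) had another broad site within 5 kb. Of the 55, 42 lay outside the 3 stretches described below. Every site of this width inside those stretches had another broad site within 5 kb, so the stretches raised this share.

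**Figure D4:**
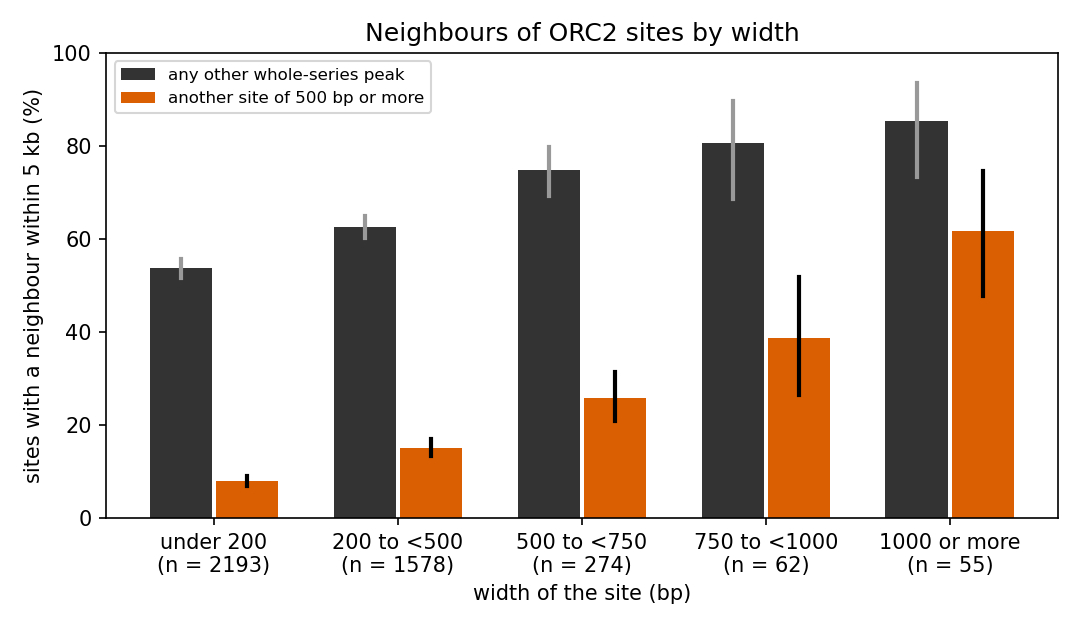
Share of sites with a neighbour within 5 kb, edge to edge (vertical axis, %), by width of the site (horizontal axis, bp), for any other whole-series peak (dark bars) and for another site of at least 500 bp (orange bars), with exact binomial 95% intervals and the number of sites. Any neighbour goes from 53.7% to 85.5% and a broad neighbour reaches 61.8% at sites of 1000 bp or more.

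Peaks called in 1 sample were also more frequent around broad sites. Replicate 1 peaks without a partner in replicate 2 lay within 5 kb of 180 broad sites (46.0%) and 1333 narrower sites (35.3%). For replicate 2 peaks without a partner the numbers were 223 (57.0%) and 1669 (44.3%). At narrower sites of 200 to under 500 bp the shares were 39.6% for replicate 1 and 48.3% for replicate 2. Whole-series peaks were denser around broad sites too, with a mean of 1.88 within 5 kb, against 1.08 around narrower sites. The means were 0.614 and 0.457 for replicate 1 peaks without a partner, and 0.941 and 0.643 for those of replicate 2. The window around a site grows with the site itself, and peaks without a partner were counted from its edges only. With distances taken from centre to centre, which does not favour wide sites, 74.2% of broad and 56.6% of narrower sites had a whole-series neighbour within 5 kb.

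Most broad sites had no other broad site less than 10 kb away, and some lay in runs of broad sites. When broad sites less than 10 kb apart were chained, 240 of the 391 were single and 151 (38.6%) fell into 51 stretches of at least 2. No such chains were drawn for narrower sites, so this share is a description of the broad sites and no comparison. There were 33 stretches of 2 and 8 of 3, and the 10 stretches of at least 4 held 61 sites. The median distance from a broad site to the nearest other broad site was 24667 bp, and the smallest was 137 bp.

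The stretch with most broad sites was on X, 12621692 to 12650029 (28.3 kb), with 9 broad sites among 15 whole-series peaks. Their widths ranged from 513 to 1387 bp and their scores from 2.17 to 5.45. Replicate 1 had 20 peaks there, 7 of them broad, and replicate 2 had 19, 8 of them broad. Another run, of 4 broad sites, lay at lower coordinates, at X, 12559968 to 12571326.

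A further 2 runs had 7 broad sites each and are shown with it, chosen by arm name from 3 of equal number. The stretch at 2R, 6971522 to 6986210 (14.7 kb), had 8 whole-series peaks, which covered 52.1% of it. Its 7 broad sites were 624 to 1497 bp wide with scores of 1.31 to 2.26, and 5 peaks of replicate 1 and 6 of replicate 2 were broad. At 2 of its broad sites the samples shared little: a replicate 1 peak of 564 bp met a replicate 2 peak of 202 bp at 6973610, and at 6975934 a replicate 1 peak of 95 bp met a replicate 2 peak of 1112 bp. The stretch at 3L, 627884 to 656652 (28.8 kb), consisted of 7 broad sites and no narrower one. They were 724 to 4846 bp wide, covered 51.5% of the stretch and scored 1.19 to 3.19. All 7 had a peak of at least 500 bp in both samples. Replicate 2 had 1 more broad peak there, of 1104 bp at 629112 to 630215, that no replicate 1 peak touched. The third run of 7, at 3R, 12057021 to 12081209, had widths of 502 to 1350 bp and scores of 2.72 to 4.45.

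**Figure D5:**
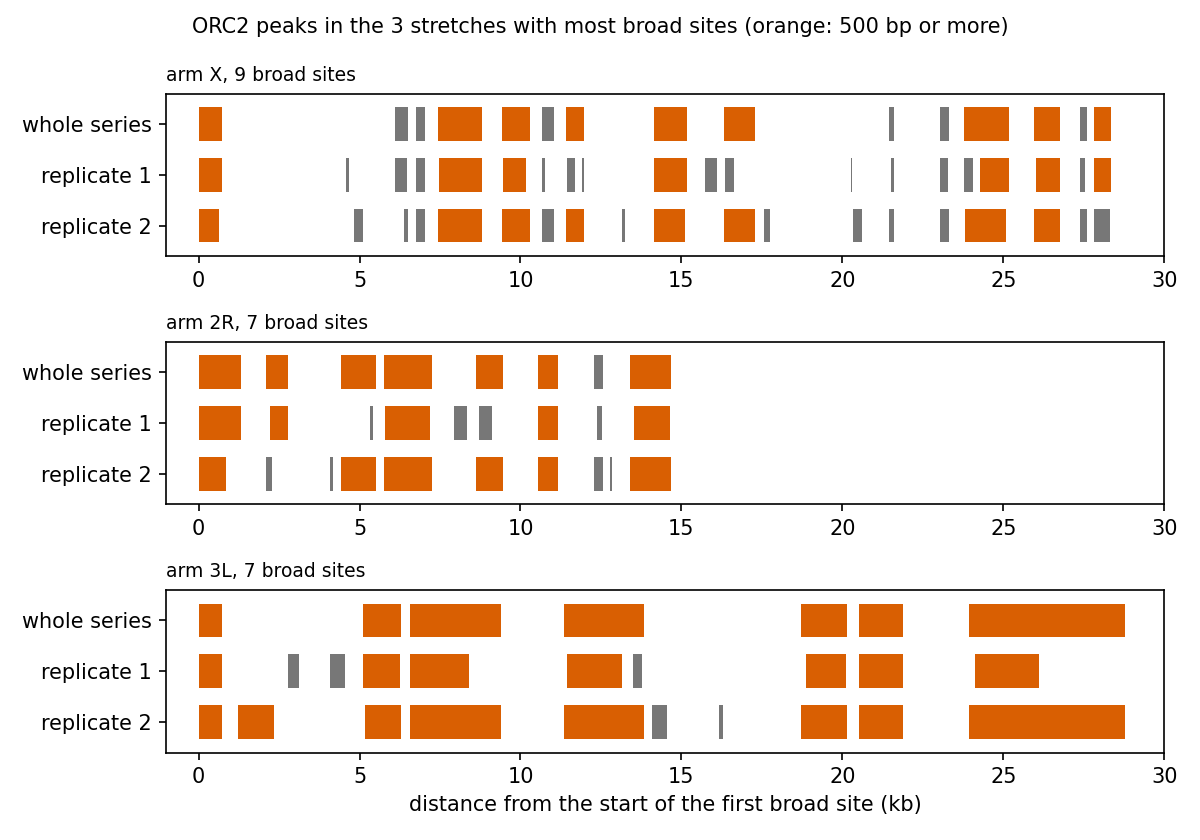
Peaks in the whole-series list and in each replicate along 3 stretches with most broad sites on X, 2R and 3L (horizontal axis, distance in kb from the start of the first broad site), with 1 row per list, peaks of at least 500 bp in orange and shorter ones in grey. The X stretch mixes 9 broad with 6 shorter whole-series peaks, the 2R stretch has 1 shorter one, and the 3L stretch holds 7 broad whole-series peaks and none that is shorter.

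Median scores of the broad sites were 3.35 in the X stretch, 1.84 in the 2R stretch and 1.88 in the 3L stretch, against 3.77 for all broad sites. In replicate 1 the broad peaks of these stretches had medians of 2.76, 1.50 and 1.64, and in replicate 2 of 3.45, 1.93 and 1.74. The 2R and 3L stretches were thus low in both samples. With all 3 stretches left out, the share of broad sites with a neighbour within 5 kb was 75.8%, against 57.4% of narrower sites.

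All arms carried broad sites. Their share of the whole-series peaks was 11.04% on 3L (90 sites), 10.6% on 2L (80), 9.42% on X (70), 8.33% on 3R (89) and 7.94% on 2R (62), and the intervals of neighbours in this order overlapped. In replicate 1 alone the shares of broad peaks ran from 2.89% on 2R to 4.49% on 2L, and in replicate 2 from 3.57% on 2R to 5.13% on 3L. Sites of 1000 bp or more numbered 15 on X, 13 on 3R, 12 on 3L, 9 on 2L and 6 on 2R.

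With the arms pooled, the share of broad sites was highest in the 2 Mb farthest from the centromere. There 51 of 394 sites were broad (12.9%, interval 9.79 to 16.7%), against 324 of 3560 in the middle of the arms (9.10%, 8.18 to 10.1%) and 16 of 208 in the 2 Mb next to the centromere (7.69%, 4.46 to 12.2%). The intervals of the distal and middle parts overlapped slightly. Single arms differed. The distal share was above the middle share on each arm, but on 3L and 2R the part next to the centromere was higher still, with 4 broad of 20 sites (20%) against 16.0% distal on 3L and 2 of 18 (11.1%) against 9.20% distal on 2R. On X the distal part had fewer broad sites per Mb than the middle, 3.0 against 3.37. In replicate 1 the shares were 6.29%, 3.65% and 3.53%, and in replicate 2 6.58%, 4.01% and 3.21%. Per Mb and over all arms the whole-series list had 5.1 broad sites in the distal parts, 3.28 in the middle and 1.6 next to the centromere, where each arm was taken to end at its last peak in the 3 lists. The distal 2 Mb of 3L alone held 15 of its 94 sites as broad sites, 7 of them in the 3L stretch. Without the 3 stretches the distal share was 11.4% and the middle share 8.71%.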

How the data were processed

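ORC2 ChIP-seq peak lists of 2 samples (1 group, replicate numbers from the sample titles) and 1 whole-series list were used; the input sample was not. Per the file headers, positions are those of FlyBase release 5, and each peak carries the caller's name, PeakSeq, and a score that the authors deposited without a stated unit. Aligner, caller version, threshold and control were not given in the sources used here. The samples' lists have replicate numbers in their peak names and so were called per sample.

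Width was last minus first base plus 1. Overlap meant at least 1 bp. Neighbour distances were the bases between edges, and broad sites less than 10 kb apart were chained. For a replicate with several peaks in a site, width and score are those of its widest peak unless stated. Shares have exact binomial 95% intervals. With 1 group of 2 samples and sites chosen by width, 0 tests were run. The named sites were the 12 widest, the 3 narrowest and the 3 just outside the rule, the 5 highest and 5 lowest in score, the 3 built from most peaks, the widest of each arm and the 3 stretches with most members. The members, these rules and the alternatives were chosen with earlier results of these data known. Genes were not assigned and sequences not printed, because the gene table at hand is of release 6. Alternatives were other width minimums and distances, single replicates, other comparison groups and parts of arms left out. The interval functions were tested on simulated data, where makeup, gaps, neighbours and shared bases were recovered at 300 of 300 sites. Software was scipy 1.17.1, pandas 2.3.3, matplotlib 3.10.9 and numpy 2.4.6 under Python 3.11.15.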

Additional observations from a re-analysis of the deposited data

Results flagged for a closer look

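Peaks of 500 bp or more also occurred on sequences outside the large arms, which the rule leaves out. There were 9 among 68 whole-series peaks there (13.2%, exact binomial 95% interval 6.23 to 23.6%), 7 of 16 on the unplaced sequences named U, 1 of 30 on chromosome 4 and 1 of 22 on the heterochromatin sequences. The widest was 964 bp, and the median score of the 9 was 2.42. In the single lists 9 of 284 peaks of replicate 1 and 6 of 274 of replicate 2 outside the large arms were this wide, 5 of 87 and 5 of 76 of them on U. They were not tested against the large arms.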

How the results depend on the processing

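Broad sites had a neighbour within 5 kb more often than narrower ones under all 12 alternatives run for both shares. The order of the median scores was less stable, with broad sites above narrower ones under 7 of 9 alternatives and below them at minimums of 750 and 1000 bp. A minimum of 400 bp gave 15.6% broad sites, 71.9% of them with a neighbour, 16.4% joined from several peaks and 27.6% with a peak of at least 500 bp in both replicates. At 750 bp these values were 2.81%, 82.9%, 32.5% and 75.2%, with a median score of 3.48, and at 1000 bp 1.32%, 85.5%, 36.4% and 89.1%, with a median score of 3.23. With each replicate's own list in turn, the share of broad peaks was 3.88 to 4.19%, the neighbour share 85.0 to 88.3% for broad and 66.6 to 71.7% for narrower peaks, and the median score 3.53 to 3.89 and 3.39 to 3.60. The single lists have narrower peaks and more of them by construction. Neighbours within 1 kb were found for 47.1% of broad and 31.7% of narrower sites, and within 10 kb for 85.9% and 71.7%. With peaks less than 1 kb apart merged first, the shares were 61.2% of 353 merged units with a broad site and 39.4% of 3036 without. These units and classes differ from those of the single sites, since merged units were not classed anew by width. Narrower sites of at least 200 bp had a neighbour in 62.7% of cases. Among sites with 1 peak from each replicate, 53.3% of the broad ones had a broad peak in both, and the share joined from several peaks has no value there by construction. Using the highest score inside a site gave medians of 4.10 and 4.03. Leaving out the 2 Mb next to the centromeres, or the 3 stretches with most broad sites (added after the data had been seen), moved none of these values beyond its interval or the spread between replicates. No paired analysis was possible because ORC2 was measured in a single group. Without read counts, widths and calls cannot be set against depth.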

Other observations

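Some peaks of 500 bp or more on the large arms had no touching peak in the other sample and so are not among the broad sites. Replicate 1 had 5 of them, 524 to 707 bp wide with scores of 1.35 to 2.22, and replicate 2 had 9, 501 to 1104 bp wide with scores of 1.28 to 3.45. At the other end of the spacing, 29 broad sites (7.42%) had no whole-series peak within 20 kb, against 547 narrower sites (14.5%). These isolated broad sites were 500 to 1163 bp wide with a median of 636 bp, had a median score of 4.52, and 8 of them had a peak of at least 500 bp in both replicates. The most isolated was 119902 bp from its nearest neighbour.

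Sites were also divided at the median score of all sites on the large arms, 3.68, a division made after the data had been seen. Below it, 152 of 186 broad sites (81.7%, exact binomial 95% interval 75.4 to 87.0%) and 1130 of 1895 narrower sites (59.6%, 57.4 to 61.8%) had a neighbour within 5 kb. At or above it the numbers were 150 of 205 (73.2%, 66.6 to 79.1%) and 1037 of 1876 (55.3%, 53.0 to 57.5%). The broad sites had the higher share in both parts, and no test was run.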
